A study of Mus musculus with 3 samples.

Results

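The genes described are 10 members of the insulin and insulin-like growth factor (IGF) system, read in the endothelial cells (ECs) of the adult mouse lung. They were taken by symbol from the table of 24346 genes: the hormone gene *Igf1*, the receptors *Insr* and *Igf1r*, the receptor substrates *Irs1* and *Irs2*, and the binding proteins *Igfbp3*, *Igfbp4*, *Igfbp5*, *Igfbp6* and *Igfbp7*. Each of the 10 symbols has 1 row. Lung ECs came from wild-type male mice of the C57BL/6J strain at 6 to 8 weeks of age, sorted fresh from tissue as CD31-positive cells without CD45 or podoplanin after an injection of antibody to VE-cadherin into the circulation. There are 3 libraries of this 1 condition, called S38, S44 and S52, so levels and their spread are described and no contrast between conditions exists. Whether each library is a separate mouse or a pool is not given in the sources used here, and the spread between libraries may be partly technical. Levels are in FPKM, fragments scaled to gene length and to library size, which divides by gene length and so allows genes to be set side by side. Where a gene or list has 3 values they are given for S38, then S44, then S52.

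Insulin and the IGFs are circulating or locally made hormones. They bind a pair of related tyrosine kinase receptors at the cell surface, the insulin receptor and the type 1 IGF receptor, which phosphorylate the IRS proteins and through them recruit PI3-kinase and Akt. A family of secreted IGF-binding proteins carries IGFs in blood and tissue and sets how much reaches the receptor, and the most distant relative, the *Igfbp7* product, binds IGFs weakly and is deposited in vessel basement membrane. Endothelium is exposed to insulin and IGF-1 in the blood directly, and insulin is known to act on nitric oxide production there.

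The sort was checked by lineage genes. All 10 endothelial markers were detected (a mean of at least 1 FPKM), and their medians were 482, 533 and 484 FPKM. S52 stood apart from the other libraries in genes of other cells. Over 5 platelet genes the summed level was 1709, 1357 and 40.2 FPKM. The sums of 5 alveolar type 2 genes were 3756, 3156 and 760 FPKM, those of 5 airway genes 2786, 2314 and 408 FPKM, and those of 5 leukocyte genes 1074, 807 and 170 FPKM. The alveolar type 2 gene *Sftpc* alone was at 3333, 2862 and 658 FPKM, against 1125, 1216 and 1164 FPKM for the endothelial gene *Pecam1*. The members' means and the count of members over 2-fold are therefore also given without S52, whereas means of other pathway genes include it. Values without S52 come from the libraries with the higher sums of these other-cell genes. Low FPKM values of genes with 1 annotated transcript fell near whole multiples of a step, from which an estimated 37600000 fragments lay behind S38, 38600000 behind S44 and 34200000 behind S52. In bulk RNA, fewer cells of a type and less RNA per cell cannot be told apart.

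Of the 10 members, 9 had a mean of at least 1 FPKM, where 48.3% of all genes did, and the same 9 reached it in each library. The exception was *Igf1*. The 2 highest, *Igfbp7* and *Igfbp4*, were at or above 35.6 FPKM, a range that holds 10.0% of genes by construction. The order of means ran from *Igfbp7* at 830 FPKM through *Igfbp4* at 165, *Igfbp3* at 17.8, *Insr* at 9.62, *Igfbp5* at 8.98, *Igfbp6* at 8.84, *Igf1r* at 5.88, *Irs1* at 2.32 and *Irs2* at 1.57 to *Igf1* at 0.683 FPKM. Ranges over the libraries did not overlap between *Igfbp7* and *Igfbp4*, *Igfbp4* and *Igfbp3*, *Igfbp3* and *Insr*, *Igf1r* and *Irs1*, or *Irs2* and *Igf1*. The neighbours *Insr*, *Igfbp5*, *Igfbp6* and *Igf1r* each overlapped the next, as did *Irs1* and *Irs2*, so their order is not larger than the spread between libraries. Without S52 the means of the other libraries were 1004 FPKM for *Igfbp7*, 143 FPKM for *Igfbp4*, 18.8 FPKM for *Igfbp3*, 11.2 FPKM for *Insr*, 11.1 FPKM for *Igfbp5*, 11.4 FPKM for *Igfbp6*, 6.94 FPKM for *Igf1r*, 2.66 FPKM for *Irs1*, 1.64 FPKM for *Irs2* and 0.919 FPKM for *Igf1*.

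**Figure D1:**
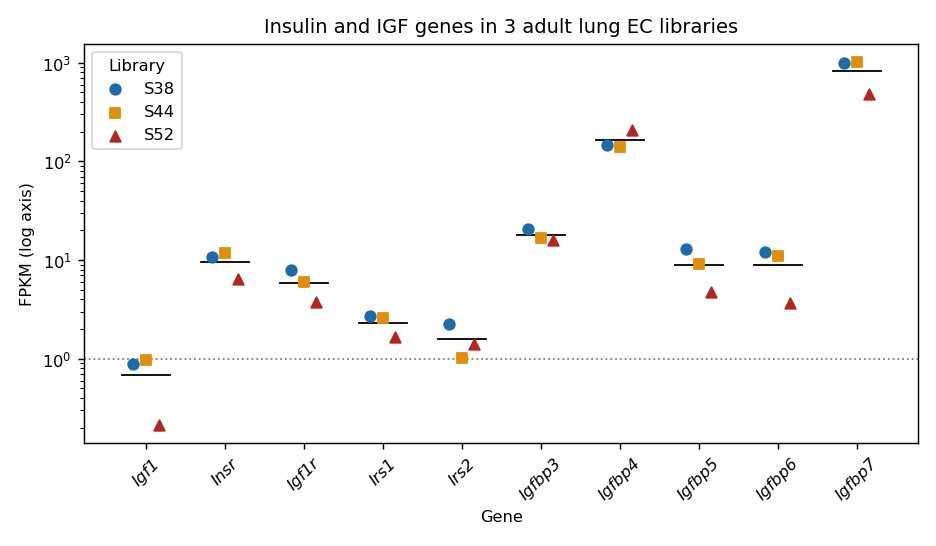
FPKM on a log axis for the 10 genes in libraries S38, S44 and S52, with the mean as a black line and a dotted line at 1 FPKM. *Igfbp7* and *Igfbp4* lie far above the rest, *Igf1* is the only gene below the dotted line in every library, and the S52 triangle is lowest for 8 of the 10 genes.

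Transcripts of the hormones were scarce. *Igf1*, which encodes IGF-1, is a plus-strand gene on chromosome 10, 87858265 to 87937042 in the GRCm38 (mm10) build. It was at 0.878, 0.960 and 0.213 FPKM, a mean of 0.683 ± 0.410 FPKM (SD, n = 3 libraries) that 49.0% of all genes lie below. S38 and S44 were alike and S52 was lower than both by over 4-fold. The counts behind these values depend on the isoform, since the 7 coding transcripts run from 651 to 7052 bp. At the longest length they correspond to about 228, 256 and 50 fragments, and at the shortest to about 17, 19 and 3, so counting error alone is wide for *Igf1* in S52. The first part of the gene overlaps an antisense gene, *Igf1os*, over 5117 bp, and in libraries without strand information reads from this overlap cannot be assigned to one of them.

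The other hormone genes were looked up from a list of 56 further pathway genes. *Ins1* and *Ins2*, the insulin genes, were listed at 0 in all libraries, which at this depth allows up to 0.0431, 0.0420 and 0.0480 FPKM for a transcript of 2000 bp (3 fragments, counting error only) and more for transcripts as short as these. *Igf2*, a growth factor mainly of fetal life, was at 4.05, 2.73 and 0.444 FPKM. It was thus above *Igf1* in every library, and both were lowest in S52.

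The insulin receptor transcript was the higher of the paired receptors. *Insr* (chromosome 8, 3122061 to 3279617, minus strand) was at 10.8, 11.7 and 6.37 FPKM, with a mean of 9.62 ± 2.85 FPKM (SD, n = 3), above 73.7% of genes. *Igf1r* (chromosome 7, 67952827 to 68233668, plus strand) was at 7.85, 6.04 and 3.76 FPKM, with a mean of 5.88 ± 2.05 FPKM (SD, n = 3). Both receptors were lowest in S52, and their ranges over the libraries overlapped. Within each library, however, *Insr* exceeded *Igf1r*, by 1.37-fold in S38, 1.94-fold in S44 and 1.70-fold in S52. The log2 ratio of FPKM + 1 was 0.63 ± 0.22 (SD, n = 3), above 0 in 3 of 3 libraries. An exact two-sided sign-flip test of 3 values cannot go below a p of 0.25, so no test was made. Both are long transcripts, of 9355 and 11409 bp, and each value rests on at least an estimated 1442 fragments. Of 13769 read-length windows along *Insr* transcripts, none is found in an *Igf1r* transcript, so exact matches to both receptors do not arise.

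*Igf2r*, the mannose 6-phosphate receptor that takes up and degrades IGF-2 and does not signal as a kinase, was at 8.003, 8.718 and 11.8 FPKM. Unlike *Insr* and *Igf1r* it was highest in S52. *Insr* exceeded it 1.35-fold in S38 and 1.34-fold in S44, while in S52 the ratio was 0.539, so the order of these receptors rests on which library is read. *Insrr*, the insulin receptor-related receptor gene, was listed at 0 in all libraries.

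Both receptor substrates were low. *Irs1* (chromosome 1, 82233101 to 82291416, minus strand), the first substrate described for the insulin receptor, was at 2.74, 2.58 and 1.64 FPKM, with a mean of 2.32 ± 0.593 FPKM (SD, n = 3). *Irs2* (chromosome 8, 10984681 to 11008458, minus strand), which serves the same receptors, was at 2.26, 1.03 and 1.41 FPKM, with a mean of 1.57 ± 0.631 FPKM (SD, n = 3). *Irs2* was the only member besides *Igfbp4* to be lowest in S44. The substrates' ranges overlapped, and *Irs2* was below *Irs1* in 3 of 3 libraries. Their log2 ratio of FPKM + 1 was -0.38 ± 0.38 (SD, n = 3), with -0.20 in S38, -0.82 in S44 and -0.13 in S52, so its size was set mostly by S44. Without that library it was -0.16. The fragments behind *Irs2* in S44 numbered an estimated 245, which gives a counting error of 6.39%. Part of *Irs1* is uncertain in these data, because 30.5% of its windows of read length also occur, on the other strand, in *Gm9747*, a gene annotated over 2822 bp of the *Irs1* gene. *Gm9747* has no row in the table.

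Levels of the binding proteins were far apart. *Igfbp7* (chromosome 5, 77349240 to 77408041, minus strand) was at 992, 1015 and 482 FPKM, with a mean of 830 ± 301 FPKM (SD, n = 3). Its ranks among the 24346 genes were 77, 87 and 196. For comparison, *Pecam1*, which encodes CD31, was at 1125, 1216 and 1164 FPKM. *Igfbp4* (chromosome 11, 99041244 to 99054392, plus strand), whose product inhibits IGF action until it is cleaved, was at 147, 139 and 210 FPKM, with a mean of 165 ± 39.0 FPKM (SD, n = 3). *Igfbp4* was highest in S52, where *Igfbp7* was lowest. The ratio of *Igfbp7* to *Igfbp4*, which no scaling of the libraries can move, took the values 6.76, 7.32 and 2.30.

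*Igfbp3* (chromosome 11, 7206086 to 7213923, minus strand), the main carrier of IGFs in serum, was at 20.6, 16.9 and 15.9 FPKM, with a mean of 17.8 ± 2.48 FPKM (SD, n = 3). With a coefficient of variation of 13.9% in the columns as deposited it was the steadiest of the 10 genes, and across all detected genes the median was 17.6%. With columns rescaled to a common sum, *Igfbp3* was at 17.9, 10.5 and 11.2. Its highest library was then 1.696-fold above the lowest, against 1.295-fold as deposited. *Igfbp5* (chromosome 1, 72857932 to 72874884, minus strand), a matrix-bound member of the family, was at 13.0, 9.14 and 4.78 FPKM, with a mean of 8.98 ± 4.13 FPKM (SD, n = 3). *Igfbp6* (chromosome 15, 102144362 to 102149511, plus strand), which prefers IGF-2, was at 12.0, 10.9 and 3.64 FPKM, with a mean of 8.84 ± 4.54 FPKM (SD, n = 3). Values of *Igfbp5* and *Igfbp6* in S52 lay below those of both other libraries, and their means were indistinguishable against this spread. *Igfbp3* and *Igfbp5* each have a family member as neighbour, with the ends of the genes facing each other. *Igfbp1*, 3539 bp from *Igfbp3*, was listed at 0 in all libraries. *Igfbp2*, 5457 bp from *Igfbp5*, was at 4.63, 2.88 and 3.77 FPKM, below *Igfbp5* in each library.

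Summed over *Igfbp1* to *Igfbp7*, binding protein transcripts came to 1189, 1193 and 720 FPKM. *Igfbp7* made up 83.4%, 85.0% and 67.0% of the sum, or 78.5% ± 10.0 (SD, n = 3), and 84.2% on average without S52. *Igfbp4* made up 12.3%, 11.6% and 29.1%. Every other family member was at or below 2.21% in each library. Without *Igfbp7* the sums were 197, 178 and 238 FPKM, so the low total in S52 was that of *Igfbp7*, while the rest of the family together was highest there.

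**Figure D2:**
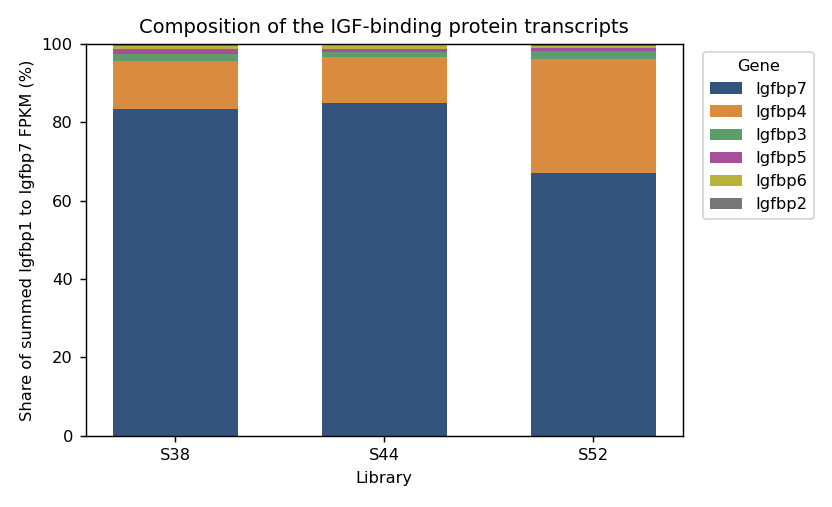
Share of each IGF-binding protein gene in the summed FPKM of *Igfbp1* to *Igfbp7*, as stacked bars from 0 to 100% for the 3 libraries. *Igfbp7* fills 83.4% and 85.0% of the bars for S38 and S44 and 67.0% of that for S52, where *Igfbp4* takes 29.1%.

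The 150 bases before the RefSeq start of 3 binding protein genes are shown because these genes carry the contrasts above: *Igfbp7* and *Igfbp4* as the abundant pair that differed in opposite directions in S52, and *Igfbp6* as the member with the largest difference there on the log2(FPKM + 1) scale, although the fold of *Igf1* was larger. They are from RefSeq on GRCm38.p6 and written in the direction of the gene, and capitals mark the letters TATAAA of the TATA box, the letters GGGCGG of the GC box and the letters CCAAT of the CCAAT box, searched on both strands. The stretches lie at chr5:77408046-77408195 (minus strand), chr11:99041094-99041243 (plus strand) and chr15:102144036-102144185 (plus strand).
Igfbp7: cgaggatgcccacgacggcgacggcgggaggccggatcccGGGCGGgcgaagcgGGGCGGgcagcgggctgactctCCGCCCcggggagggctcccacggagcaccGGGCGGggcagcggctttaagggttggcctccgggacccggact
Igfbp4: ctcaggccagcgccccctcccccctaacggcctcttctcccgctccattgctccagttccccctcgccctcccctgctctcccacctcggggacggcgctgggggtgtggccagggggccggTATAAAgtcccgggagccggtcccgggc
Igfbp6: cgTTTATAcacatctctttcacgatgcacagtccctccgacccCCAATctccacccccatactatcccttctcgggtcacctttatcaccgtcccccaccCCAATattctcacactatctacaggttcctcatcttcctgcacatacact

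The *Igfbp7* stretch holds GGGCGG at 4 places, 1 of them on the other strand, in a sequence that is 78.0% G and C. That of *Igfbp4* holds TATAAA 28 bases before the start. That of *Igfbp6* is 50.7% G and C, holds CCAAT 107 and 50 bases before the start, and holds TATAAA on the other strand 148 bases before it. The GENCODE position of *Igfbp6* starts further downstream, at 102144362, whereas this stretch ends at 102144185. Distances for *Igfbp6* hold for the RefSeq start only. Among 32851 promoter stretches of the same length, 28.6% hold GGGCGG, 24.5% hold CCAAT and 7.57% hold TATAAA. The motifs do not overlap one another, and they were chosen after the sequences were seen. Promoters of 9 of the 10 members were matched by symbol, and *Insr* was not among them. These matches describe letters and are not evidence of a bound factor.

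Further down the pathway, most genes were detected. Of the 56 other pathway genes, 44 had a mean of at least 1 FPKM, where 48.3% of all genes did. Among 41 genes that act inside the cell (adaptors, PI3-kinase and Akt, negative regulators, and the TOR, GSK3 and FoxO arm) 38 did, with a median of 13.0 FPKM. Among 14 other ligands, receptors, binding proteins and proteases 5 did, with a median of 0.0574 FPKM. These 14 leave out the 10 members, most of them also ligands, receptors or binding proteins, of which 9 were detected. The contrast with genes inside the cell thus depends on how the list was split. *Ins1*, *Ins2*, *Insrr*, *Igfbp1* and *Igfals* were listed at 0 throughout. All 10 PI3-kinase and Akt genes were detected, led by *Akt1*, the kinase that phosphorylates nitric oxide synthase, at 90.05 ± 10.47 FPKM (SD, n = 3). *Akt1* was therefore higher than *Insr* and *Igf1r* in each library.

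Adaptors were led by *Grb2* at 46.5 ± 4.09 FPKM and *Shc1* at 32.7 ± 1.47 FPKM (SD, n = 3 for each), which link the receptors to Ras, whereas *Irs4* was listed at 0 and *Irs3* was at 0.0286 FPKM. *Grb14*, whose product binds and inhibits the insulin receptor, was named after its values were seen, at 28.0, 36.1 and 20.8 FPKM, above *Insr* and both substrates in each library. Its relative *Grb10* was at 15.2 ± 2.07 FPKM (SD, n = 3). Among 9 negative regulators, all detected, *Socs3*, a feedback inhibitor of cytokine and insulin receptors, was at 320, 413 and 394 FPKM. *Phlpp1*, a phosphatase of Akt, was at 24.8 ± 3.65 FPKM, which the spread does not separate from *Inpp5d* at 24.7 ± 1.64 FPKM or *Ptpn1* at 24.4 ± 8.12 FPKM (SD, n = 3 for each). All 13 genes of the TOR, GSK3 and FoxO arm were detected, from 5.39 FPKM for *Tsc1* to 72.7 ± 2.57 FPKM (SD, n = 3) for *Rheb*, the GTPase that activates TOR. *Gsk3a* was at 30.2 ± 7.54 FPKM (SD, n = 3).

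Genes that release IGFs from binding proteins were mixed. *Htra1*, a secreted protease that cleaves several of them, was at 11.5, 5.90 and 10.8 FPKM. *Pappa* and *Pappa2*, which encode proteases of IGF-binding proteins, were at 0.0176 and 0.0971 FPKM on average and listed at 0 in S52. *Stc1*, which encodes an inhibitor of such proteases, was at 6.88 ± 1.59 FPKM (SD, n = 3). *Ide*, the insulin-degrading enzyme gene, was at 12.4 ± 2.63 FPKM (SD, n = 3).

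**Figure D3:**
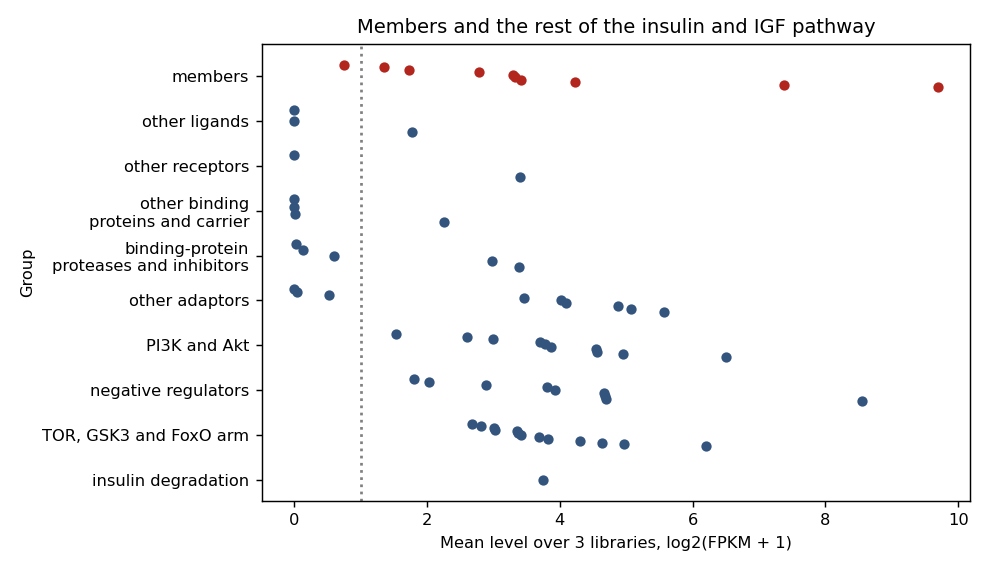
Mean level over the 3 libraries as log2(FPKM + 1), 1 point per gene, for the 10 members (red) and the 56 other pathway genes (blue) by group, with a dotted line at 1 FPKM. Genes inside the cell lie mostly right of the line (38 of 41). The other ligands, receptors, binding proteins and proteases, without the members, mostly lie left of it (5 of 14 to the right). Of all genes, 48.3% had a mean of at least 1 FPKM.

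Spread between libraries was counted next. The highest library was over 2-fold above the lowest for 6 of the 10 (*Igf1r*, *Igf1*, *Irs2*, *Igfbp5*, *Igfbp6* and *Igfbp7*). Counting only the 9 detected members it was 5, and 20.1% of all detected genes passed that fold. In the rest of the pathway 2 of 44 detected genes passed it (*Igf2* and *Socs1*), and neither did so without S52. No test of this difference was made. The fold was 2.09 for *Igf1r*, 2.198 for *Irs2*, 2.103 for *Igfbp7*, 2.73 for *Igfbp5*, 3.30 for *Igfbp6* and 4.52 for *Igf1*, so 3 of the 6 lay just past the threshold, and *Insr*, at 1.84, lay just short of it. S52 decided most of this. Without S52 the count was 1, *Irs2*, and without S38 it was 3.

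For 8 of the 10 members the lowest library was S52, including 7 of the 9 detected ones. Among all detected genes 46.3% were lowest in S52, and among detected pathway genes 15 of 44. Set against the mean of S38 and S44 on the log2(FPKM + 1) scale, S52 differed by -1.42 for *Igfbp6*, -1.06 for *Igfbp7*, -1.04 for *Igfbp5*, -0.73 for *Insr*, -0.73 for *Igf1r*, -0.66 for *Igf1*, -0.47 for *Irs1*, -0.22 for *Igfbp3* and -0.09 for *Irs2*, and by 0.55 for *Igfbp4*. The median of all detected genes was -0.07, and their 5th and 95th percentiles were -1.19 and 0.67. Only *Igfbp6* lay outside that range, and 3.65% of detected genes had a lower value. Rank within a library, which ignores scaling, gave the same count of 8. With columns rescaled to a common sum *Igfbp3* became lowest in S44 and the count was 7.

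Marker lists of other cell types and of EC subtypes differed in S52 as well, and their part in the result was not tested. All 5 genes of the platelet, alveolar type 2, airway, leukocyte and erythroid lists were lowest in S52, with *Cd3e* of the leukocyte list at 0 there. In the macrophage list 4 of 5 were, from summed levels of 59.0, 29.8 and 5.33 FPKM, with *Marco* at 0 in S52. The 5 mesothelial genes summed to 14.2, 14.3 and 10.1 FPKM, and 3 of them were lowest in S52 alone. The sum in S52 was all *Krt19*, which was at 11.9, 8.19 and 10.1 FPKM. *Msln*, *Upk3b* and *Lrrn4* were listed at 0 in S52 alone and *Wt1* in both S44 and S52. Lymphatic genes summed to 55.0, 53.8 and 23.7 FPKM and 3 of 5 were lowest in S52, with *Ccl21a* at 0 there, while *Prox1*, the defining lymphatic factor, was at 0.132, 0.173 and 0.598 FPKM. Among ECs themselves, all 5 aerocyte genes (*Car4*, *Ednrb*, *Apln*, *Tbx2* and *Kdr*), which mark the capillary cells of gas exchange, were lowest in S52, with sums of 1527, 1620 and 982 FPKM and a median difference of -0.73 on the log2(FPKM + 1) scale. General capillary genes, at 1868, 2163 and 2326 FPKM, were highest in sum in S52, with *Gpihbp1* alone at 661, 663 and 886 FPKM. The median level of that list was highest in S44, at 268.5, 371.1 and 281.5 FPKM, and 1 of its 5 genes was lowest in S52. Its median difference was 0.21. The endothelial list, which shares *Kdr* with the aerocyte list, had 0.02. Mural genes, at 111, 57.7 and 104 FPKM, were not lowest in S52 for any of 5. Fibroblast genes summed to 75.7, 57.6 and 44.3 FPKM and 2 of 5 were lowest there. The arterial list summed to 248, 293 and 299 FPKM. The venous list summed to 388, 418 and 280 FPKM, of which *Vwf* made up 298, 314 and 235 FPKM. The alveolar type 1 list summed to 564, 586 and 481 FPKM, with 3 of its 5 genes lowest in S52. In that list *Ager* was highest in S52, at 43.3, 33.4 and 66.0 FPKM, and *Aqp5* was lowest there, at 10.5, 7.61 and 3.08 FPKM. The median differences of the arterial, venous and alveolar type 1 lists on the log2(FPKM + 1) scale were 0.0018, -0.02 and -0.04. Their single genes ran from -0.22 to 0.63, from -1.66 to 0.65 and from -1.29 to 1.48. In the arterial and venous lists 2 of 5 genes each were lowest in S52.

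**Figure D4:**
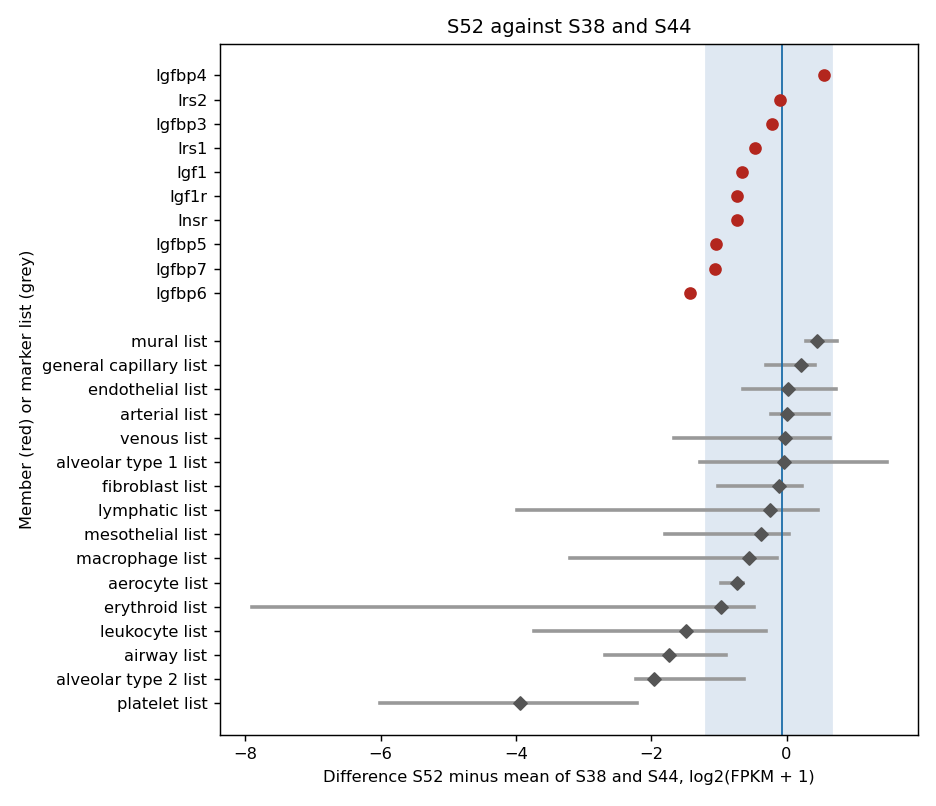
Difference of S52 from the mean of S38 and S44 on the log2(FPKM + 1) scale, for the 10 genes (red points) and for each marker list (grey diamond, median; grey line, lowest to highest gene). The blue line is the median of detected genes at -0.07 and the band runs from the 5th to the 95th percentile, -1.19 to 0.67, so that *Igfbp6* lies outside it and *Igfbp4* lies furthest to the right.

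Likeness of pattern was taken as the distance between a member and each detected marker gene in log2(FPKM + 1) centred on the mean of the 3 libraries. By this measure the marker nearest to *Igfbp7* was *Ednrb*, at 143, 155 and 75.3 FPKM, with a distance of 0.09. The nearest to *Insr* was *Apln*, at 80.2, 81.5 and 48.5 FPKM, with a distance of 0.06, and the nearest to *Igf1r* was *Tbx2*, with 0.14. These 3 markers are all of the aerocyte list. Like the 3 members, all 5 genes of that list were lowest in S52, and a link between them was not tested. The nearest marker to *Igfbp5* was the fibroblast gene *Dcn*, at 47.4, 35.5 and 19.8 FPKM, with 0.05, and that to *Igfbp3* was *Col1a1*, with 0.08. For *Igfbp4* it was the mural gene *Cspg4*, with 0.11, for *Igfbp6* the alveolar type 1 gene *Aqp5*, with 0.23, for *Irs1* *Vwf*, with 0.12, and for *Irs2* *Krt19*, with 0.17. Over 3 libraries many genes share a pattern: 59 detected genes were as near to *Igfbp7* as *Ednrb*, 65 as near to *Insr* as *Apln*, 257 as near to *Igf1r* as *Tbx2*, 13 as near to *Igfbp5* as *Dcn*, 259 as near to *Igfbp3* as *Col1a1*, 295 as near to *Igfbp4* as *Cspg4* and 617 as near to *Irs1* as *Vwf*. As near to *Igfbp6* as *Aqp5* were 147 detected genes, and as near to *Irs2* as *Krt19* were 194. The nearest marker to *Igf1* was *Abca3*, with 0.03 and 26 detected genes as near. The levels of *Abca3*, however, were 19.4, 19.9 and 12.4 FPKM, a smaller fold than that of *Igf1*. *Cspg4*, the marker nearest to *Igfbp4*, was below 1 FPKM in S38 and S44 and at 1.805 FPKM in S52. This is a larger fold than the 1.514 of *Igfbp4*. Near or below 1 FPKM the added 1 sets much of the scale, and the distance then describes no likeness in fold.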

How the data were processed

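RNA from 3 libraries of sorted adult lung ECs was sequenced by the authors as unstranded, poly-A selected paired reads of 51 bp. The table the authors deposited holds FPKM, 1 value per symbol and library, on mm10. Per the labels, bcl2fastq 2.17, FastQC 0.11.5, Trimmomatic 0.36, TopHat2 2.1.0 and Cufflinks 2.2.1 were used. The methods of the study describe another route, through STAR and HTSeq counts, and which of them made the FPKM values is not given in the sources used here, nor is the gene annotation.

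Values were used as deposited, without rescaling. All per-sample columns were used. Means, SDs, ranks and shares are on the FPKM scale. Folds and ratios not marked as log2 are quotients of FPKM. Log2 ratios and differences of S52 are of log2(FPKM + 1), which understates changes of low genes. Genes with a mean of 1 FPKM or more count as detected. FPKM values are not counts, and with 1 condition no model was fitted and no p-value is given. Depth was estimated from the steps of low values in 7077 genes for which GENCODE M21 tags only 1 transcript as basic. The share of low values that came within 0.15 of whole fragments was 80.6% (of 314) for S38, 77.5% (of 395) for S44 and 75.0% (of 204) for S52. On simulated counts for the same 7077 genes, 3 depths were recovered to within 0.0259%. The simulation used the transcript lengths of the estimate and a length correction among those searched. Its recovery therefore does not measure the error in the deposited values, whose annotation is not known. The share of low values expected near whole fragments without any step was not computed. Fragments and floors cover counting error only. Positions are those of GENCODE M21 on GRCm38, the assembly of mm10. Windows of 51 bases were searched in all M21 transcripts on both strands.

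The members, pathway list, marker lists and measures were chosen with earlier results of these data known. Named are all members, the 2 highest pathway genes of each group and those listed at 0 throughout, the first gene or the sum of each marker list, and the marker nearest to each member in pattern. Some genes that this rule would name are not reported here. *Grb14*, *Grb10*, *Tsc1*, *Irs3*, *Socs1*, *Pappa*, *Pappa2*, *Inpp5d*, *Ptpn1* and the markers listed at 0 were added after their values were seen. Alternatives were leaving out each library, 2 rescalings, thresholds of 0.1 and 10 FPKM or in every library, other pseudocounts, and ranks. Computations used Python 3.11.15, numpy 2.4.6 and pandas 2.3.3.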

Additional observations from a re-analysis of the deposited data

How the results depend on the processing

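The count of members at 1 FPKM or above, 9, was 3 with a threshold of 10 FPKM, and that of pathway genes, 44, was then 26; a threshold of 0.1 FPKM gave 10 and 46. The count of members over 2-fold between libraries, 6, ran from 1 to 5 when 1 library was left out, with 1 without S52, and was 3 when the fold was taken on log2(FPKM + 1), which shrinks differences of low genes by construction. Rescaling each column to a sum of 1000000 gave 8 for it and scaling by the median ratio 5. The count of members lowest in S52 was between 7 and 9 under the alternatives that keep S52, and no value exists without S52. The ratios of *Insr* to *Igf1r*, *Irs2* to *Irs1* and *Igfbp7* to *Igfbp4* kept their sign under each alternative run. These ratios and the share of *Igfbp7* moved by less than 1 SD. Leaving out 1 of 3 libraries cannot move a mean by 1 SD, nor turn a sign that all 3 share. A change of pseudocount cannot turn such a sign either. Only the size of the ratios under other pseudocounts was therefore open, and for the share no other alternative was run. The *Igfbp7* to *Igfbp4* ratio and the rank scale were added after seeing the data. Of the 10 means, 3 moved by over 1 SD when columns were rescaled to a common sum. These were *Irs1*, *Igfbp3* and *Igfbp4*, then at 1.71, 13.2 and 120.5 FPKM. None moved that far with columns scaled by median ratio. Leaving out a library could not move any of them by 1 SD, so those runs do not measure robustness. No paired analysis was possible because there is 1 group. Depth limits *Igf1* most, where S52 may rest on as few as 3 fragments.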
